A study of Mus musculus with 2 samples.

Results

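The A2 genes are transcripts first grouped because mouse astrocytes raised them after ischemia, in contrast to the A1 genes of inflammatory stimulation. The 10 examined here, Clcf1, Ptx3, S100a10, Sphk1, Cd109, Ptgs2, Emp1, Tm4sf1, B3gnt5 and Cd14, were taken by name from that grouping, with earlier results of these data known. They are 10 of 19494 genes with a named probe set, and each was measured by 1 probe set. Intensities came from 2 Clariom S mouse arrays, 1 per group, each with RNA pooled from several sorts of ACSA-2-positive cells of the ipsilateral cortex at POD15. ACSA-2 is a surface antigen of astrocytes, and antibody and magnetic beads were used to select the cells. All mice were C.B-17/Icr-+/+Jcl males aged 7 weeks with permanent middle cerebral artery occlusion (MCAO) and BrdU at 50 mg/kg/day from POD0 to POD3, and all had lived with a running wheel before surgery. The MCAO + exercise group then ran voluntarily for 15 days, and the MCAO + non-exercise group was housed without a wheel. No array of uninjured cortex was used here, so the change of any gene with ischemia itself is not part of these values. As each group is 1 pool on 1 array, no spread between mice could be measured, no test was made, and no error or p-value is given.

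Reactive astrocytes enlarge, strengthen their filament network and change what they secrete after injury. The A2 label has been used for a state with many trophic and repair-associated genes, although reactive astrocytes are now known to take more states than a pair of labels can hold. The 10 genes span several jobs. Clcf1 and Ptx3 are secreted, Cd14, Cd109 and Tm4sf1 sit at the cell surface, Sphk1, Ptgs2 and B3gnt5 are enzymes of lipid signals and glycolipids, and S100a10 and Emp1 work at or near the plasma membrane. Several are not restricted to astrocytes: Cd14 is typical of microglia and macrophages, and Tm4sf1 and Emp1 are also made by endothelial cells.

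All 14 astrocyte markers examined lay above background on both arrays. Their log2 intensities were at least 7.90 for the MCAO + non-exercise pool and 8.29 for the MCAO + exercise pool. Markers of other cell types were above background too, among them 13 of 13 named microglia and macrophage markers and 13 of 13 named endothelial markers. Those of microglia and macrophages had log2 intensities of at least 11.23 and 11.92 in the same order, and those of endothelium at least 8.07 and 7.91. The signals below are therefore read as those of sorted fractions and not of pure astrocytes. In such a pool, fewer cells of a type and less RNA per cell cannot be told apart. As background served the 25th percentile of named probe sets per array. This was a log2 intensity of 5.08 for the MCAO + non-exercise pool and 4.89 for the MCAO + exercise pool. On at least 1 array 15196 of 19494 genes passed it, so passing it alone does not show that a gene is expressed. Of the 10 A2 genes, 9 passed it on both arrays. Clcf1 was below it on both. The array labelled MCAO + exercise is called the exercise array below and the other the non-exercise array, and each difference is the log2 intensity of the former minus the latter. Directions follow the deposited labels, which run opposite to the gene tables of the study. Vegfa, for example, had a difference of -1.40 and Lcn2 one of 1.79, whereas the tables give Vegfa as higher and Lcn2 as lower with exercise. Lcn2 measured apart from the arrays, by qPCR (as a tendency) and by staining, also goes the way of the study's tables and not of the deposited labels. If the labels of the arrays were exchanged, every sign below would turn and every size would stay.

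Most A2 genes had a lower signal on the exercise array, and none differed by more than 2-fold. Of the 9 above background, 7 were lower, with differences from -0.88 to -0.40 on the log2 scale, and 2 were higher, S100a10 by 0.29 and Tm4sf1 by 0.30. Among all 15196 genes above background 46.4% were lower by any amount, and the share of the A2 genes was 77.8%. The median difference of the 9 was -0.48, against 0.04 over all genes above background. The count past a difference of 1, the fold that the study used to call genes, was 0 in either direction, beside 2.36% of all genes lower by more than 1 and 3.77% higher by more than 1. The study also removed genes below its negative control. That filter was not applied here, so these shares are not those of its gene lists. Centring each array on the median of its genes above background turned those shares to 3.78% lower and 2.85% higher, and an offset of 32 before log2 made them 0.65% and 2.65%, with the A2 count still 0. With so few members, a count of 0 past that fold lies near the background share and says nothing particular about them.

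**Figure D1:**
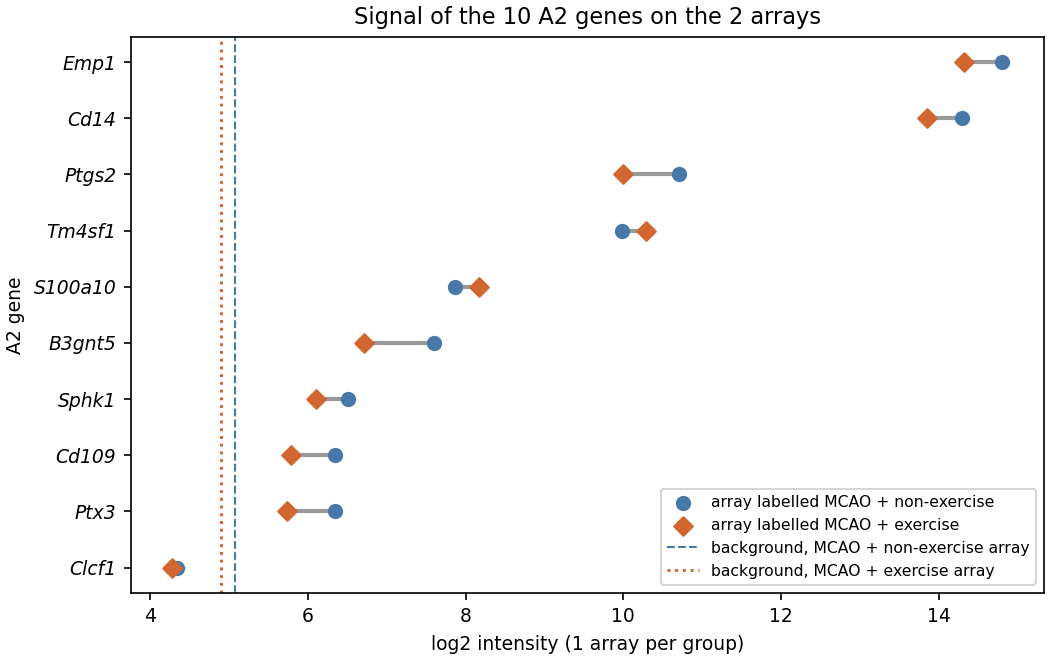
Log2 intensity (x axis) of each A2 gene (y axis, ordered by mean level) on the array labelled MCAO + non-exercise (circles) and on the array labelled MCAO + exercise (diamonds), 1 array each, with the background of each array as a vertical line. The circle lies to the right of the diamond for 7 of the 9 genes above background, and both symbols of Clcf1 lie left of the lines.

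Of the secreted members, Clcf1 was not measurable and Ptx3 was low. Clcf1 encodes a cytokine of the interleukin-6 family that acts through the CNTF receptor. Its log2 intensity was 4.34 on the non-exercise array and 4.28 on the exercise array, both under background, so no difference is read from it. Ptx3, a long pentraxin that binds microbes, complement and matrix, had values of 6.34 and 5.73, a difference of -0.62. These lay 1.27 and 0.83 above the background of their arrays, which makes Ptx3 one of the dimmer members. At its level genes were lower on the exercise array as a rule, with a median of -0.15 over the 2558 other genes within 0.5 of its mean level, and 15.0% of these had a difference as low or lower.

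The enzymes of the group were all lower on the exercise array. B3gnt5 had the largest difference of the 10 genes. It encodes the transferase that starts the lacto-series and neolacto-series of glycosphingolipids, and its log2 intensities of 7.60 and 6.72 gave a difference of -0.88. On the linear scale, 193.8 against 105.1, the non-exercise array was 1.84-fold brighter. Ptgs2, or cyclooxygenase-2, the inducible enzyme of prostaglandin synthesis, had log2 intensities of 10.71 and 9.998, a difference of -0.71. It lay far above background, and genes of similar level tended the other way, with a median of 0.18 over 1432 of them, of which 2.44% were as low as Ptgs2 or lower. For B3gnt5 that share was 4.43% of 2100 genes. Sphk1, the kinase that makes sphingosine-1-phosphate, was close to background with values of 6.50 and 6.10. Its difference of -0.40 was the smallest among the members that were lower, and 27.0% of 2354 genes of similar level were as low or lower.

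The surface and membrane genes went both ways. Emp1, a small membrane protein of the PMP22 family, had log2 intensities of 14.81 and 14.33, a difference of -0.48. Cd14, which presents lipopolysaccharide to Toll-like receptor 4, had values of 14.30 and 13.85, a difference of -0.45. Both were far above background on either array. Of 191 genes near the level of Emp1, 5.24% were as low or lower, and of 294 near that of Cd14, 4.42%. Cd109, a GPI-anchored protein that binds TGF-beta and limits its signalling, had values of 6.34 and 5.79, a difference of -0.55. Like Ptx3 it was near background, and 18.6% of 2542 genes at its level were as low or lower. In contrast, S100a10 and Tm4sf1 were brighter on the exercise array. S100a10, also called p11, which joins annexin A2 at the membrane, had log2 intensities of 7.87 and 8.16, a difference of 0.29. Tm4sf1, a surface protein with 4 membrane-spanning segments, had 9.98 and 10.28, a difference of 0.30. Both lay well inside the range of their neighbours in level, whose central 90% ran from -0.72 to 1.00 for S100a10 and from -0.52 to 1.00 for Tm4sf1.

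The differences of all genes depended on level, so part of a member's value is shared with genes of like signal. Genes with a mean log2 intensity up to 6 had a median difference of -0.18, those from 6 to 8 one of -0.04, those from 10 to 12 one of 0.19 and those above 14 one of 0.08. A lowess curve through the genes above background was subtracted to show each member against its own level. Ptgs2 was then furthest from the curve, at -0.91, followed by B3gnt5 at -0.87, Emp1 at -0.60 and Cd14 at -0.57. The dim members moved towards 0, Ptx3 to -0.48, Cd109 to -0.42 and Sphk1 to -0.29. S100a10 stayed above the curve by 0.21 and Tm4sf1 by 0.11. Thus 7 of 9 were below the curve, as without it, and the order of the members changed.

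**Figure D2:**
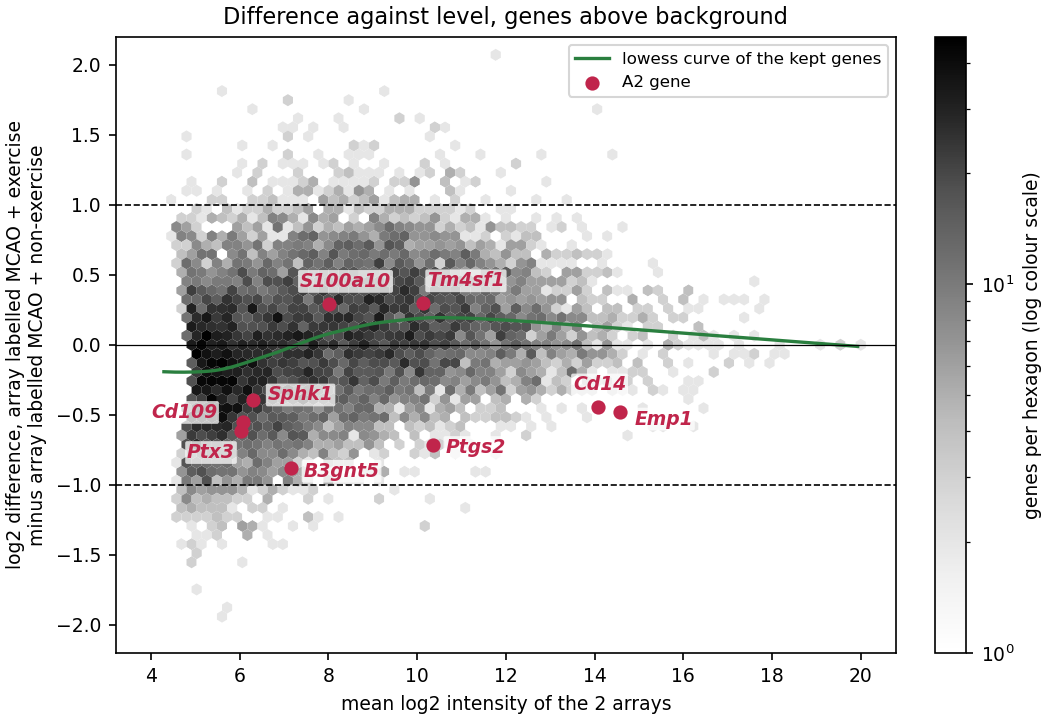
Difference between the arrays (y axis, log2, exercise minus non-exercise by label) against the mean log2 intensity of both (x axis) for the genes above background, as hexagons shaded by the number of genes, with the lowess curve in green, the A2 genes in red and dashed lines at 1 and -1. The 9 A2 genes lie between the dashed lines, 7 of them below the curve, and 48 genes outside the plotted range of 2.2 in either direction are not drawn.

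Promoter letters are shown for the 4 members with a single start site in the RefSeq table of GRCm38.p6, which include B3gnt5 and Ptgs2, the pair with the largest differences, and Tm4sf1, which was higher. Of the 10 members, 6 were found in that table. Each line gives the 250 bases upstream of the start, 5′ to 3′ on the strand of the gene, with motif matches in capitals. The motifs searched on both strands were the TATA box (TATAAA), the cyclic AMP response element (TGACGTCA) and its short form (TGACG), the AP-1 site (TGANTCA), the STAT site (TTCNNNGAA), a C/EBP site (TTNNGCAA), the E-box (CACGTG), the NF-kB site and the CArG box.
B3gnt5: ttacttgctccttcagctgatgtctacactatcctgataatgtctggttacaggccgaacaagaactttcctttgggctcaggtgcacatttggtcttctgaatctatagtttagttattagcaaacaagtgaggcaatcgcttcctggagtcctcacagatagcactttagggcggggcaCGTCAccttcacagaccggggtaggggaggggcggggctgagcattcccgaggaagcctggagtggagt
Ptgs2: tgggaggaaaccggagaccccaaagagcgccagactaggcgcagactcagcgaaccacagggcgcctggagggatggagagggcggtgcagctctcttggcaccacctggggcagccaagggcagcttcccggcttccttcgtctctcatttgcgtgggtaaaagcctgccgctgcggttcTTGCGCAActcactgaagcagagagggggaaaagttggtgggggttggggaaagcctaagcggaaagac
Ptx3: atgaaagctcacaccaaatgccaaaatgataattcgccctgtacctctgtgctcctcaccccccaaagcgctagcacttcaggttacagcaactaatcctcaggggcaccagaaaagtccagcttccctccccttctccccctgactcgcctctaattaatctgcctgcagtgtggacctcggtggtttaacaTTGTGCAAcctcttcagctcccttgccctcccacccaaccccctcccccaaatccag
Tm4sf1: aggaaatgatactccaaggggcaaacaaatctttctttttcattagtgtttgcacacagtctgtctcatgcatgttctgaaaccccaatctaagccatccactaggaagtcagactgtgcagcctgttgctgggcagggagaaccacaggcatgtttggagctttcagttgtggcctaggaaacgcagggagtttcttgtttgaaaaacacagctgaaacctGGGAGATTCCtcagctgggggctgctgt
The windows are chr16:19759984-19760233 (plus strand) for B3gnt5, chr1:150099781-150100030 (plus strand) for Ptgs2, chr3:66219637-66219886 (plus strand) for Ptx3 and chr3:57301989-57302238 (minus strand) for Tm4sf1.

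The 4 windows held few of these motifs, and none was common to all. Ptgs2 and Ptx3 each had 1 C/EBP match, TTGCGCAA and TTGTGCAA, starting 69 and 57 bases before the start site, a motif found in 9.56% of the 32851 upstream windows in the table. B3gnt5 had 1 short form of the cyclic AMP response element on the minus strand, a motif of 17.8% of windows. Tm4sf1 had 1 NF-kB match, found in 3.90% of windows. AP-1 and STAT letters, present in 6.75% and 7.02% of windows, occurred in none of the 4. They did occur upstream of Emp1 and Sphk1, which have several start sites. The window of the second Emp1 start, chr6:135367243-135367492 (plus strand), held none of the motifs searched. The window of the first Emp1 start, chr6:135362681-135362930 (plus strand), is shown because it held both motifs more than once, with the last AP-1 match and the last STAT match overlapping.
Emp1: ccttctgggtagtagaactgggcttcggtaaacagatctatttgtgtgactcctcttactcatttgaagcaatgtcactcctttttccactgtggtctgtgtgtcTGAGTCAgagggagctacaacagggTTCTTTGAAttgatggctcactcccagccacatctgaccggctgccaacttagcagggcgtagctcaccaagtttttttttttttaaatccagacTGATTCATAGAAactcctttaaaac
In Sphk1, 2 of 5 windows, which overlap, shared a single AP-1 match and a single STAT match. A match in letters is only a description of the sequence, and no binding was measured.

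Clcf1 was under background, but the receptor chain that its protein acts on was measured. Cntfr, the specific receptor subunit, had a difference of 0.16, the shared subunits Lifr and Il6st (gp130) had differences of 0.31 and 0.19, and the transcription factor Stat3 one of 0.26, with log2 intensities of Stat3 of 11.36 and 11.61. Of 15 genes of this pathway above background, 10 were higher and 5 lower, 0 of them past a difference of 1, and the median was 0.16. Il6st had the highest signal of the list. The feedback inhibitor Socs3 had the highest difference, 0.99, from 9.23 to 10.22. The lowest belonged to a ligand, oncostatin M (Osm), at -0.87, and the ligand cardiotrophin-1 (Ctf1), named after its value was seen, had -0.84. After the lowess correction the small rises were mostly gone, with Cntfr at -0.03, Il6st at 0.03, Lifr at 0.13, Stat3 at 0.07 and a list median of 0.03, so no direction is read for the receptor chain. Osm and Ctf1 were still lower, at -1.06 and -0.92, and Socs3 higher, at 0.81.

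Genes around Ptgs2 went in both directions. Of 16 genes of prostanoid synthesis, transport and reception above background, 9 were lower and 7 higher, 0 of them past a difference of 1, and the median was -0.15. The phospholipase Pla2g4a, which releases the substrate of Ptgs2, was higher by 0.94, from 8.77 to 9.72. Ptges, the inducible prostaglandin E synthase, had a difference of -0.35, and the lowest value was that of the prostaglandin E receptor Ptger2, -0.60. Ptger2 was close to background on both arrays, with 5.74 and 5.13. Ptgds, prostaglandin D synthase, had the highest signal of the list, at 17.71 and 18.06, and a difference of 0.35. The constitutive enzyme Ptgs1 is not analysed here. Ptgs2 is also an immediate early gene, and such genes respond to tissue dissociation. Of 18 immediate early genes above background, 11 were higher, 6 lower and 1, Dusp1, had the same value on both arrays. Their median was 0.15, with Klf4 highest at 1.16 and Egr1 lowest at -0.22, and Ptgs2 had -0.71. After the lowess correction their median was 0.06 and 8 of the 18 were lower. Whether dissociation had a part in the value of Ptgs2 was not tested.

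Around Sphk1, the exporter of its product and the receptors S1pr1, S1pr3 and S1pr5 were higher while the kinase was lower. The pathway as a list had no direction that held. The sphingosine-1-phosphate pathway had 19 genes above background, 11 of them higher and 8 lower, and a median of 0.15, beside 46.4% of all genes lower. After the lowess correction 10 of the 19 were lower and the median was -0.02. The exporter Spns2 was higher by 1.45, from 9.08 to 10.53, the only gene of the list past 1. The receptors S1pr1 and S1pr3 had differences of 0.58 and 0.52 (0.39 and 0.60 after the correction), and S1pr2 the lowest of the list, -0.98. The other receptors, S1pr5 and S1pr4, added to complete the family, had 0.62 and -0.08 (0.43 and -0.02 after the correction). Sphk2, the other sphingosine kinase, had 0.15, and -0.02 after the correction. The ceramidase Asah1, with the highest signal, had -0.02.

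Around Cd14, more genes of the lipopolysaccharide receptor, of related receptors and of their adaptors were lower than higher. Ly96 (MD-2), which holds the ligand in the receptor complex, had the lowest difference of the list, -0.68, from 13.46 to 12.78, and Tlr4, the signalling receptor, had -0.43. Lbp, which hands lipopolysaccharide to Cd14, was higher by 0.32. Of 15 genes of the list above background, 10 were lower and 5 higher, 0 of them past 1, beside 46.4% of all genes lower. Among the 10, Rela and Nfkbia, named for their values near 0, had -0.02 each. The median was -0.20, and the adaptor ligase Traf6 was highest at 0.50. Ly86, which pairs with Cd180 and had the highest signal, had -0.31. After the lowess correction 12 of the 15 genes were lower and the median of the list was -0.32. Markers of microglia and macrophages, cells that also make Cd14, were lower for 9 of 13, with a median of -0.19 and a range from -0.62 (Tyrobp) to 0.69 (Tmem119). After the correction 11 of these 13 markers were lower and their median was -0.29. The log2 of their summed intensity was 20.39 for the non-exercise array and 20.18 for the exercise array, and 0 of the 13 were at background. Their part in the value of Cd14 was not tested.

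The relatives of the remaining members did not share one direction. For S100a10, its partner Anxa2 had a difference of -0.26, and of 12 S100, annexin and plasminogen genes 6 were higher, 5 lower and 1 equal, with S100b at 1.80, S100a11 at -0.54, Anxa5, which had the highest signal, at -0.31 and a median of 0.01. For Cd109, the TGF-beta receptors Tgfbr1 and Tgfbr2 had -0.19 and -0.15, Tgfb1, with the highest signal, had -0.32, and of 12 pathway genes 8 were lower and 4 higher (median -0.17), Tgfb3 highest at 1.35 and Tgfbr3 lowest at -0.71. For Emp1, the family members Emp2, Emp3 and Pmp22 had 0.39, 0.04 and -0.06, none as low as Emp1. Tm4sf1 was higher, whereas its relatives Tm4sf4 and Tm4sf19 had -1.14 and -0.68. Tm4sf4 was dim, with 6.50 and 5.35, the latter close to the background of 4.89 on the exercise array. For B3gnt5, 8 of 10 related beta-1,3-glycosyltransferases were higher, with a median of 0.09 and B3galt1 highest at 0.79, while B3gnt2, with the highest signal, had 0.06. B3gnt4 was above background on the non-exercise array only, where it was at least 1.35-fold brighter. For Ptx3, 3 of 7 pentraxins and matrix partners were higher and 4 lower (median -0.04), and 2 of the 7 passed background on 1 array only. Tnfaip6, which joins Ptx3 in hyaluronan matrix and had the highest signal, was higher by 1.15, from 11.27 to 12.43, and the pentraxin Nptx2 had -0.47. The medians of the S100, Emp1 and Ptx3 lists were near 0 and changed sign with the lowess correction, to -0.04, -0.04 and 0.12. That of the TGF-beta list became -0.32 and that of the beta-1,3-glycosyltransferases 0.19.

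**Figure D3:**
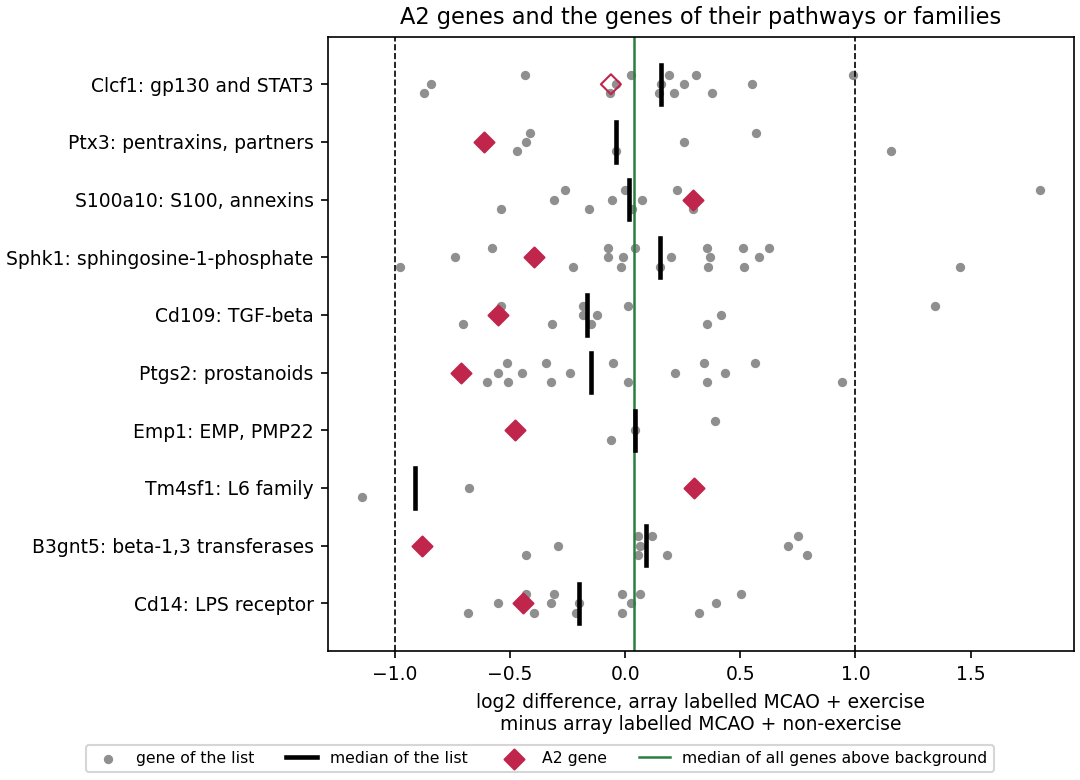
Difference between the arrays (x axis, log2, exercise minus non-exercise by label) of each A2 gene (red diamonds, open for Clcf1, which was under background) and of the genes of its pathway or family above background (grey points), 1 row per A2 gene, with the median of each list in black, that of all genes above background in green and dashed lines at 1 and -1. Ptx3, Ptgs2, Emp1 and B3gnt5 lie to the left of all grey points of their rows, and Tm4sf1 to the right of both of its relatives.

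Other lists of reactive astrocyte genes had higher medians than the A2 genes. Of the remaining genes assigned to A2 astrocytes, the transglutaminase Tgm1 had a difference of -0.60, from 6.66 to 6.06, Stat3 one of 0.26, and the transporter Slc10a6 was under background. Of 12 pan-reactive genes above background, 8 were higher and 4 lower, and the median was 0.16. Lcn2 was highest at 1.79 and the only one past 1, Aspg was lowest at -0.46, and Vim, with the highest signal, had 0.17. A1 genes had a median of -0.22, with 7 of 10 lower and 3 higher. This stands beside 7 of 9 A2 genes and 46.4% of all genes above background lower. Fbln5 was the lowest of the A1 genes at -0.81. Srgn, with the highest signal of that list, had -0.32, and Amigo2 was above background on the exercise array only, at least 1.23-fold brighter there. After the lowess correction the medians were -0.30 for the A1 genes, 0.08 for the pan-reactive genes and -0.48 for the A2 genes. With 1 array per group the lists could not be tested against each other.

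Cell type markers beside the A2 values did not all go the same way. The 14 astrocyte markers were all higher, by 0.08 to 1.26, with a median of 0.52 and a log2 summed intensity of 17.21 on the non-exercise and 17.80 on the exercise array. After the lowess correction 3 of them, Slc4a4 (-0.10), Fgfr3 (-0.05) and Gjb6 (-0.01), were lower and the median was 0.35. In contrast, 13 of 13 endothelial markers were lower, by 0.16 to 0.69, with a median of -0.36 and sums of 17.33 and 16.99. All 7 named fibroblast markers were lower as well, with a median of -0.70, Col3a1 lowest at -1.81 and sums of 14.83 and 14.48. Of 9 markers of pericytes and smooth muscle, 5 were lower and 4 higher, and the median was -0.47. This list was split, from -1.53 (Acta2) to 1.10 (Abcc9), and its sums were 14.27 and 14.29. None of the endothelial or fibroblast markers was at background, and the A2 genes that were lower had differences of the same order. Of the members also made by endothelial cells, Emp1 was lower like the endothelial markers, at -0.48, and Tm4sf1 was higher, at 0.30. Of the oligodendrocyte markers 9 of 9 were higher, with a median of 0.82. Neuron markers had a median of 0.93, with 9 higher and 2 lower, from -1.60 (Syt1) to 3.13 (Camk2a). Neutrophil markers had a median of 0.89, with 7 higher and 2 lower, from -0.54 (Mpo) to 2.83 (Ngp), and sums of 14.77 and 14.76. These sums were mostly the signal of 1 gene, Csf3r, at 14.67 and 14.52. Of the 9 neutrophil markers, 2 passed background on 1 array only. After the lowess correction the medians were -0.52 for endothelial, -0.84 for fibroblast and -0.63 for pericyte and smooth muscle markers. Those of oligodendrocyte, neuron and neutrophil markers were 0.72, 1.08 and 0.86, and that of the A2 genes was -0.48. Which cells the A2 signals came from was not tested.

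**Figure D4:**
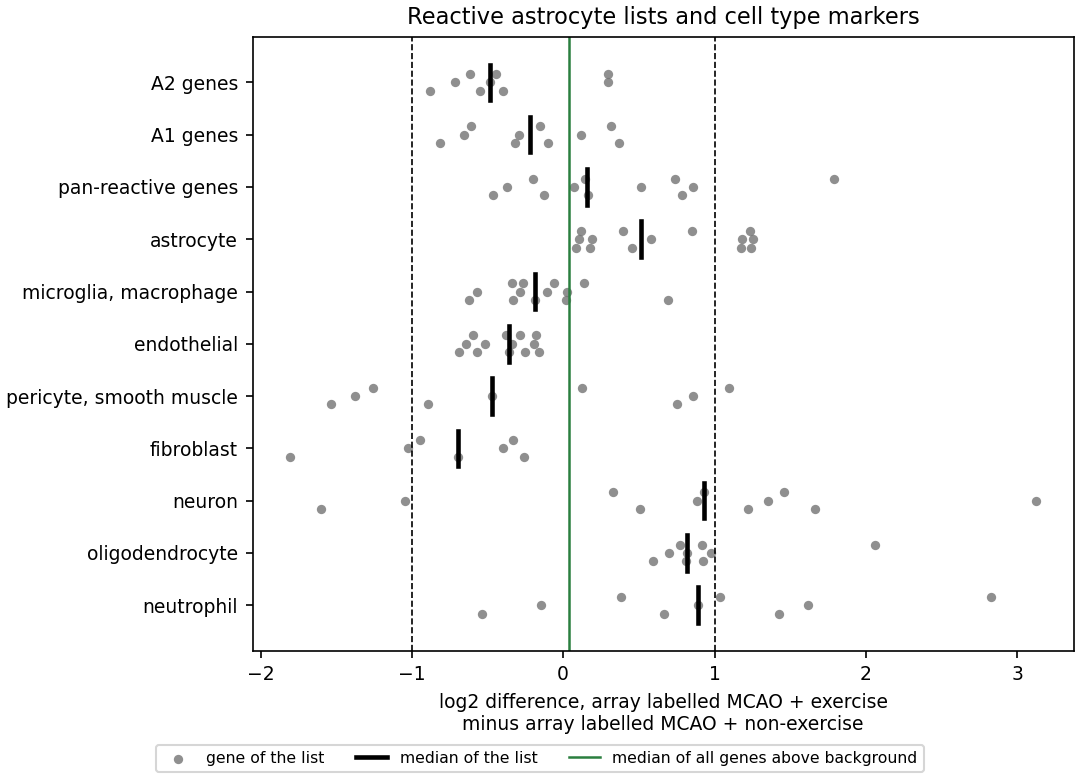
Difference between the arrays (x axis, log2, exercise minus non-exercise by label) for the genes above background of 3 reactive astrocyte lists and 8 lists of cell type markers (1 row each, 1 point per gene), with the median of each list in black, that of all genes above background in green and dashed lines at 1 and -1. The median of the A2 genes, -0.48, lies on the other side of 0 from that of the astrocyte markers, 0.52. The median of pericytes and smooth muscle, -0.47, is that of a split list, with genes from -1.53 to 1.10.

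The signs of the A2 differences were the same under each treatment of the intensities that was tried. Under 8 other ways of processing, 7 of the 9 members stayed lower and 2 higher, and none passed a difference of 1. Changing the background or averaging probe sets could not alter a member's difference, as each was measured by 1 probe set. Only median centring, quantile normalization, the lowess correction and the offset could do so. B3gnt5 came closest, at -0.99 after each array was centred on its median. Quantile normalization took Ptgs2 to -0.92, Emp1 to -0.66 and Cd14 to -0.64. An offset of 32 before log2, which weighs on dim genes, brought Ptx3 to -0.41, Cd109 to -0.37 and B3gnt5 to -0.72. Tm4sf1 was nearest to 0, with 0.11 after the lowess correction.

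**Figure D5:**
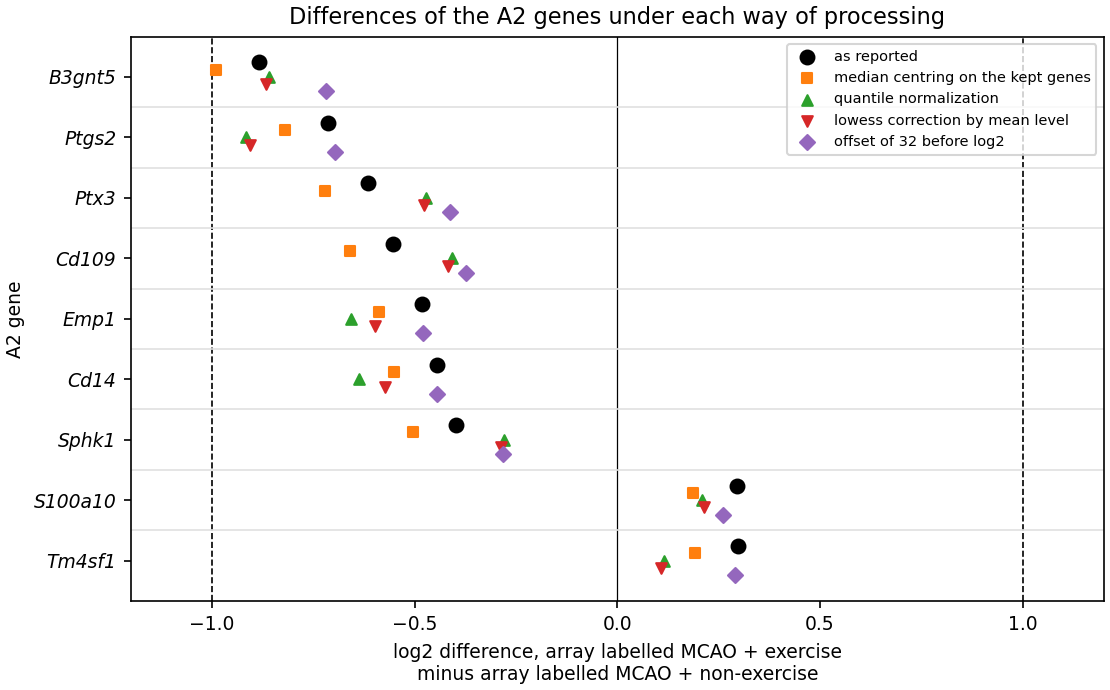
Difference of each A2 gene above background (x axis, log2, exercise minus non-exercise by label) as reported (black) and under the 4 ways of processing that changed any value (coloured symbols), with dashed lines at 1 and -1. No symbol crosses 0 or either dashed line, and B3gnt5 after median centring lies nearest to one, at -0.99.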

How the data were processed

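Gene expression was measured on 1 Clariom S array per group. Normalization by GCCN-SST-RMA was done for the authors by a service. Affymetrix Expression Console and RMA are the tools in the submitters' processing notes, with no version. The deposited values are intensities on a linear scale for 22142 probe sets, and log2 was taken here. A genome build for the array processing is not given in the sources used here. Promoter coordinates are those of RefSeq's GRCm38.p6. Through the platform annotation 19527 probe sets had a gene symbol, for 19494 genes, and the brightest probe set of a gene was used. Of 280 list entries, 263 could be named. The number of arrays limits the precision. Genes named besides the members are, for each list, those with the highest and lowest difference and the highest signal, direct partners, and a few marked in the text or shown as cell type markers. Members and lists were chosen with earlier results of these data known. Alternatives were a background at the 10th percentile, on both arrays or omitted, median centring, quantile normalization, a lowess correction (span 0.3), an offset of 32, and averaging over the probe sets of a gene. Signals of different probe sets are not compared as amounts. The code that counts genes past the fold was tested on simulated intensities with known changes, which does not bear on the spread between mice. Scripts ran in Python 3.11.15 with pandas 2.3.3, NumPy 2.4.6 and statsmodels 0.14.6, and figures were drawn with matplotlib 3.10.9.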

Additional observations from a re-analysis of the deposited data

How the results depend on the processing

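The median difference of the A2 genes was -0.48 and ran from -0.59, after each array was centred on the median of its genes above background, to -0.41, with an offset of 32 before log2. Leaving out each of the 9 members in turn gave medians from -0.52 to -0.46. Over all genes above background, median centring moved the median difference from 0.04 to -0.07 and the share lower by any amount from 46.4% to 55.8%. With a background at the 10th percentile or none, Clcf1 entered at -0.06, so that 8 of 10 members were lower and the median was -0.46. The number of members lower or higher by more than 1 was 0 under all 8 alternatives. Of 72 values of single members under the alternatives, 70 stayed within 0.2 of the reported value and 2 moved further, Ptx3 to -0.41 with the offset and Ptgs2 to -0.92 after quantile normalization. Many of the 70 could not move. The background settings and the averaging of probe sets leave a member's difference as it is, since each member has 1 probe set. No paired analysis was possible because each group has 1 array. Ptx3, Cd109 and Sphk1 lay within 1.5 of background on the log2 scale, which limits how their values can be read, and the spread between mice is unknown for every gene.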
